A study of Homo sapiens with 15 samples.

Results

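The 7 genes described here are LMCD1, PDLIM5, COTL1, TAGLN, MARCKS, TGM2 and CDCP1, which encode LIM-domain, actin-binding and adhesion-linked proteins. They were picked from earlier results of these data for higher levels in libraries that overexpress cytidine deaminase (CDA), so their levels against the control are a description and carry no test. All 7 were among the 16887 genes of both deposited tables, and all 7 were among the 11341 genes tested in each comparison with the control. Messenger RNA had been sequenced from Mia PACA-2, an established human pancreatic cancer line, in 15 libraries. The control, the CDA group and the CDA_E67Q group each held pools 1 to 5. CDA_E67Q carries the E67Q change of the glutamate on which catalysis depends. All groups were grown in the same medium with no treatment. The labels do not say how the enzyme was introduced, what the control cells carried or what a pool is. The p-values therefore cover the variation among these libraries only, and this variation may be technical. In bulk RNA, fewer cells with a transcript and less of it per cell cannot be told apart.

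Actin filaments give a cell its shape and pull on its contacts with the matrix, and small binding proteins set how filaments are built, bundled and tied to the membrane. LIM domains are zinc-binding modules that hold such proteins together at filaments and adhesions, and several LIM proteins also act in the nucleus. In pancreatic cancer cells TGM2 and CDCP1 have been studied for their part in adhesion, survival and invasion.

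Promoter sequences are shown for 3 of the genes, of which LMCD1 and MARCKS stood apart in the results below. LMCD1 was the only one of the 7 whose overexpressing libraries all lay above every control, and MARCKS was high mainly with the catalytically intact enzyme. COTL1 did not stand apart. It was above the same-numbered control in 4 of 5 pools with each form, as TGM2 and CDCP1 were. RefSeq sequences on GRCh38.p14 were matched by symbol for 5 of the 7 genes (TAGLN and TGM2 were the others), each from 250 bases before to 50 bases after the gene start, 5′ to 3′ on the gene's strand. The gene start here is that of RefSeq, which for LMCD1 lies downstream of the GENCODE start given below. Capitals mark the GC box (GGGCGG), the CCAAT box (CCAAT) and the cyclic AMP response element (TGACGTCA) on either strand. The LMCD1 window is chr3:8501573-8501872 (plus strand), the COTL1 window chr16:84618029-84618328 (minus strand) and the MARCKS window chr6:113857095-113857394 (plus strand).
LMCD1: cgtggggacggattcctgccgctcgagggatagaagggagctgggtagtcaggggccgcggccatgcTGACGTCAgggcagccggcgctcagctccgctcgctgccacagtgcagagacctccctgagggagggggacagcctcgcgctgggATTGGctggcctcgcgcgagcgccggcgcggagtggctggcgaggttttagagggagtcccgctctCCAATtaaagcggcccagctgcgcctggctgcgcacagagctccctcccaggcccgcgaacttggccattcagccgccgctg
COTL1: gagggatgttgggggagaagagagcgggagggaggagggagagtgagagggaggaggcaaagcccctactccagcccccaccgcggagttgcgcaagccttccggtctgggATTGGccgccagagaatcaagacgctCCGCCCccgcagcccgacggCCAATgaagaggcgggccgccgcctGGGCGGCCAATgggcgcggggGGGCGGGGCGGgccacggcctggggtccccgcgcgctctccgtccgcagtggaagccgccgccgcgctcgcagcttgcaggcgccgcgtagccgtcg
MARCKS: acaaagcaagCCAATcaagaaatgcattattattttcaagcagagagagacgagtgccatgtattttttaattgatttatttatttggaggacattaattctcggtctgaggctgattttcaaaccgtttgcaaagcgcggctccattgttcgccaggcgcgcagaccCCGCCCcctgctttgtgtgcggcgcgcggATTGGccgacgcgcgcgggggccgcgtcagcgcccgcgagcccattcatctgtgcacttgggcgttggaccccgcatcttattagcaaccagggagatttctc
The LMCD1 window held 1 response element, starting 183 bases before the RefSeq gene start, which occurs in 1.85% of 35116 windows of the same length. It held 2 CCAAT boxes and no GC box. COTL1 held 4 GC boxes, of which those starting at -47 and -42 share 1 base, and 3 CCAAT boxes. MARCKS held 1 GC box and 2 CCAAT boxes. Over the 5 genes with a sequence, 4 held a GC box (45% of all windows do) and 3 held a CCAAT box (34.6% of all windows). None of the 5 held an AP-1 site (TGANTCA, 7.71% of all windows), a TEAD core (GGAATG, 14% of all windows), a TATA box (TATAAA, 11.5%), a CArG box (1.29%) or an NF-kB site (5.91%). The CCAAT box and the response element were added after the sequences had been read. A match describes letters in the window and not a bound site.

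The sums of normalised counts ran from 23.3 to 28.4 M per library, and 12508 to 13090 genes had a value above 0. These sums have been scaled and are not read depths. The CDA transcript itself (chromosome 1, positions 20588948 to 20618908) stood 7.06 to 78.2 times above the same-numbered control with CDA and 6.96 to 169 times above it with CDA_E67Q. Of the markers of pancreatic epithelium, KRT8, KRT18, KRT19 and SOX9 were present in every library (lowest level 1499), while EPCAM and CDH1 did not exceed 3.62 in any. Of 15 markers of fibroblasts and smooth muscle, DCN, LUM and FAP were at 0 in all 15 libraries. COL1A2 made up most of the summed level of that list, which ran from 7858 to 40875 in the control and from 19558 to 37143 with CDA in the table of that form. In the table of CDA_E67Q it ran from 7424 to 38809 in the control and from 22319 to 40355 with CDA_E67Q. Pool 5 was unlike the other pools in all 3 groups. The number of genes that differed between pool numbers was 5217 of 11588 with pool 5 and 163 of 11395 without it.

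By limma no gene passed the adjusted p threshold of 0.05 in either direction with CDA (0% of 11341) or with CDA_E67Q (0% of 11341). The overexpressed CDA transcript did not pass either, although it was 26.2-fold higher with CDA and 34-fold higher with CDA_E67Q, without overlap. These fits can thus miss large changes, and a gene that did not pass is not shown to be unchanged. At an unadjusted p under 0.05 there were 32 genes (0.282%) and 54 genes (0.476%), of which 19 (0.168%) and 30 (0.265%) were higher. Genes were sorted by whether the overexpressing library lay above the same-numbered control in at least 4 of 5 pools. With CDA 6 of the 7 genes met this, where 18.0% of all tested genes did, and with CDA_E67Q 6 of 7 did, where 18.2% did. Both forms met it for LMCD1, COTL1, MARCKS, TGM2 and CDCP1, where 7.11% of 11275 genes tested in both comparisons did. The criterion sets no least size. CDCP1 with CDA met it through a log2 difference of 0.01 in pool 1, and MARCKS with CDA_E67Q through 0.26 at very low levels in pool 4. All 5 pools were higher for LMCD1 and TAGLN with CDA (1.96% of all genes) and for LMCD1 and PDLIM5 with CDA_E67Q (2.14%). PDLIM5 met the criterion of at least 4 pools only with CDA_E67Q and TAGLN only with CDA. Since this contrast chose the genes, these shares are given without a reading. Both comparisons use the same 5 control libraries, so a low control library raises both differences at once.

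LMCD1, a LIM-domain protein that restrains GATA6 and also takes part in calcineurin signalling of muscle, is encoded on the plus strand of chromosome 3 (8501707 to 8574673 on GRCh38, GENCODE 29, as for all positions given for genes). On the common scale its level in control pools 1 to 5 was 10.3, 9.28, 14.4, 10.6 and 11.3. With CDA it was 16.3, 25.0, 73.2, 41.9 and 23.8, and with CDA_E67Q 21.1, 47.7, 31.4, 37.3 and 33.3. All 10 overexpressing libraries lay above all 5 controls. The mean log2 difference was 1.42 with CDA (SE 0.48, 95% interval 0.37 to 2.48), or 2.68-fold, and 1.5 with CDA_E67Q (SE 0.42, 0.59 to 2.41), or 2.83-fold. By pool the ratio to the control ran from 1.59 in pool 1 to 5.10 in pool 3 with CDA, and from 2.04 in pool 1 to 5.13 in pool 2 with CDA_E67Q. Groups did not overlap, with the form higher, for 4 genes with CDA (0.0353%) and 4 with CDA_E67Q (0.0353%), and for 2 genes with both forms (0.0177%). Those 2 were CDA and LMCD1. The others, named after their values were seen, were NIPAL1 and PWP2 with CDA, and BID and MRPL2 with CDA_E67Q. The control level of LMCD1 is near 10 normalised counts and rests on few reads. Exons of LMCD1 overlap those of the non-coding gene AC034187.1 on the other strand, which has no value in these data. Its part in the LMCD1 values was not tested. On the deposited scale, which compresses low levels, the log2 difference of LMCD1 was 0.34 with CDA and 0.41 with CDA_E67Q.

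PDLIM5 is an adaptor with a PDZ domain and LIM domains that brings protein kinase C to actin filaments (chromosome 4, positions 94451857 to 94668227, plus strand). Its control levels in pools 1 to 5 were 351, 604, 404, 1028 and 1190. With CDA they were 943, 840, 2605, 936 and 1092, and with CDA_E67Q 810, 2199, 2642, 1403 and 1365. With CDA a single library, that of pool 3, lay above every control, and pools 4 and 5 stood slightly below theirs. With CDA_E67Q all 5 pools were above their own control and 4 libraries lay above every control. The mean log2 difference was 0.86 with CDA (SE 0.40, 95% interval -0.01 to 1.74) and 1.28 with CDA_E67Q (SE 0.40, 0.42 to 2.15). Without pool 3 these were 0.41 and 0.93. A difference counted as resting on 1 pool where leaving out that of the highest library, its control included, took it below 50% of its value. PDLIM5 met this criterion with CDA and not with CDA_E67Q. With CDA, its difference was 0.57 without the pool 3 CDA library alone and 0.70 without the pool 3 control alone.

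COTL1, a coactosin-like protein of the cofilin fold that binds filamentous actin and 5-lipoxygenase, is encoded on the minus strand of chromosome 16 (84565594 to 84618077). Its control levels were 7095, 2581, 4079, 5513 and 10314 in pools 1 to 5. With CDA they were 6407, 6661, 19326, 10844 and 11803, and with CDA_E67Q 7001, 12257, 18506, 9672 and 12010. In pool 1 all 3 libraries were alike, and in pool 5 the overexpressing libraries stood 1.14 and 1.17 times above a control that was already high. Pools 2 and 3 differed most, by 2.58 and 4.74 times with CDA and by 4.74 and 4.54 times with CDA_E67Q. Averaged over pools, the log2 difference was 0.93 (SE 0.39, 95% interval 0.08 to 1.78) and 1.09 (SE 0.36, 0.31 to 1.86). Without pool 3 it was 0.60 and 0.81.

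TAGLN, the calponin-family actin cross-linker of smooth muscle, maps to the plus strand of chromosome 11 (117199321 to 117204782). In the control it stood at 34.8, 81.3, 80.9, 41.8 and 66.5 in pools 1 to 5. With CDA it stood at 42.1, 183, 239, 186 and 90.5, above the same-numbered control in every pool. With CDA_E67Q it stood at 20.8, 233, 122, 133 and 66.0, and only pools 2, 3 and 4 were above their control. Over the 5 pools TAGLN differed by a mean log2 of 1.11 with CDA (SE 0.48, 95% interval 0.05 to 2.17) and 0.60 with CDA_E67Q (SE 0.57, -0.64 to 1.84). Exons of TAGLN overlap those of PCSK7 on the other strand. PCSK7 had log2 differences of 0.02 and -0.01. Of the other smooth muscle markers, the highest level in any library was 29.4 for MYH11, 41.0 for CNN1, 54.7 for DES and 80.3 for ACTA2. SMTN was higher and ran from 438 to 1672. Their part in the TAGLN values was not tested.

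MARCKS, a protein kinase C substrate that ties actin to the inner face of the cell membrane, maps to the plus strand of chromosome 6 (113857362 to 113863471). It was the gene with the widest range. In control pools 1 to 5 it stood at 0, 15.2, 13, 3.44 and 20. With CDA it stood at 29.4, 1650, 146, 58.0 and 19.7, and with CDA_E67Q at 5.26, 3.98, 37.9, 4.32 and 27.9. With CDA 4 of 5 libraries lay above every control, and that of pool 2 was 11.3 times the next. The CDA_E67Q libraries overlapped the control, and that of pool 2 was below its own control, at 0.261 times. The mean log2 difference was 3.74 with CDA (SE 1.20, 95% interval 1.10 to 6.38) and 0.62 with CDA_E67Q (SE 0.99, -1.54 to 2.78). It depends on the pseudocount at these low levels, with 2.75 and 0.27 at a pseudocount of 8 and 1.27 and 0.13 on the deposited scale. Leaving out the pool of the highest library left 3.01 with CDA, and leaving out that library alone left 2.72. The difference with CDA thus did not rest on the pool 2 library. With CDA_E67Q the difference without pool 1, whose control is at 0, was 0.12.

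TGM2, a calcium-dependent enzyme that cross-links proteins and also binds fibronectin and integrins at the cell surface, is encoded on the minus strand of chromosome 20 (38127387 to 38166578). Its control levels in pools 1 to 5 were 10406, 8584, 3094, 6902 and 4739. With CDA they were 9090, 29181, 35787, 14761 and 6333, and with CDA_E67Q 8120, 17765, 37531, 17260 and 6227. Pool 3 had the lowest control level and the highest level of both forms, 11.6 and 12.1 times its control. Pool 1 was slightly lower with both forms, at 0.874 and 0.780 times. The mean log2 difference was 1.32 (SE 0.49, 95% interval 0.26 to 2.39) with CDA and 1.20 (SE 0.47, 0.18 to 2.22) with CDA_E67Q. Without pool 3 it was 0.77 and 0.60. The second of these lay at the 50% line of the criterion for resting on 1 pool and fell just outside it. Exons of TGM2 overlap those of RPRD1B on the other strand, which had log2 differences of 0.00 and -0.22.

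CDCP1 is a transmembrane glycoprotein with CUB domains that SRC-family kinases phosphorylate when cells detach (chromosome 3, positions 45082278 to 45146422, minus strand). Control pools 1 to 5 had 1315, 1263, 782, 1321 and 1612. The CDA libraries had 1322, 2113, 2740, 1610 and 1606, and the CDA_E67Q libraries 1239, 2250, 3531, 1870 and 1862. Its pattern resembled that of TGM2, with the lowest control and the highest levels of both forms in pool 3 and little difference in pool 1. The mean log2 difference was 0.57 (SE 0.24, 95% interval 0.05 to 1.08) with CDA and 0.73 (SE 0.27, 0.13 to 1.32) with CDA_E67Q. Without pool 3 it was 0.26 and 0.36. It thus counted as resting on 1 pool with CDA, just inside the criterion, and lay just outside it with CDA_E67Q. With CDA, the difference was 0.42 without the pool 3 CDA library alone and 0.41 without the pool 3 control alone.

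**Figure D1:**
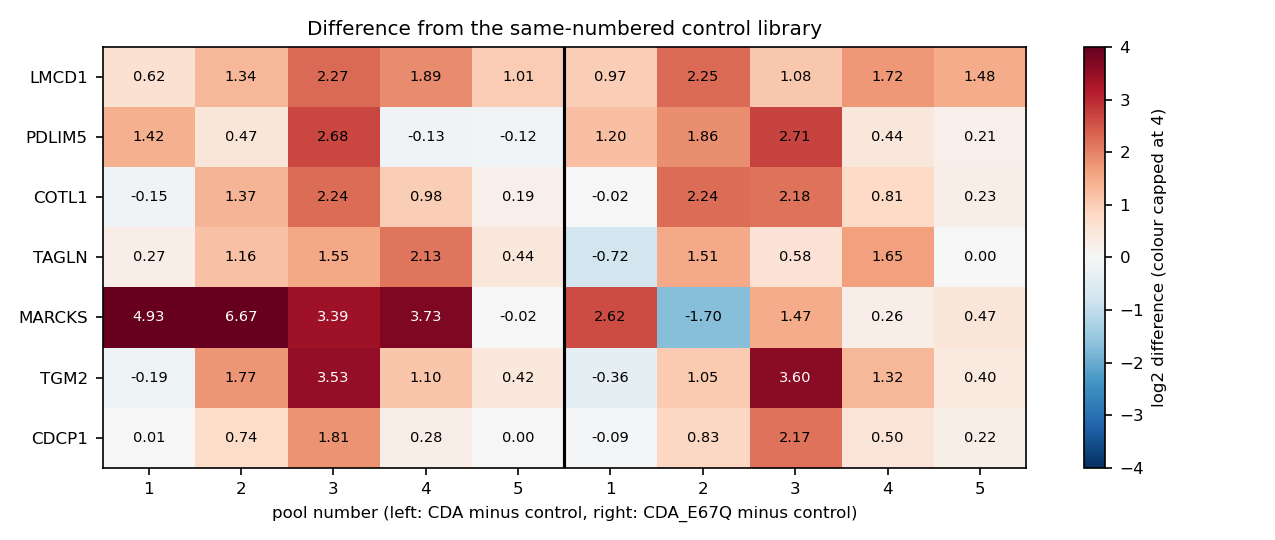
Log2 difference of each overexpressing library from the same-numbered control library, for the 7 genes (rows) and pools 1 to 5 (columns), with CDA on the left and CDA_E67Q on the right. Pool 3 is above 0 for every gene with both forms (lowest 0.58), LMCD1 is above 0 in every cell, and MARCKS runs from 6.67 with CDA to -1.70 with CDA_E67Q in pool 2.

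The median difference over the 7 genes varied with pool number, but not every gene had the same order of pools. With CDA, MARCKS differed most in pool 2 (6.67) and TAGLN in pool 4 (2.13). With CDA the median log2 difference of the 7 genes was 0.27, 1.34, 2.27, 1.10 and 0.19 in pools 1 to 5, and with CDA_E67Q -0.02, 1.51, 2.17, 0.81 and 0.23. Over all tested genes the median in each of these pairs of libraries lay between -0.012 and 0.022. In pool 3 all 7 genes were at least 2-fold higher with CDA, where 6.04% of all tested genes were, and 6 of 7 with CDA_E67Q, where 5.88% were. In pool 2 the count was 5 with CDA (3.92% of all genes) and 5 with CDA_E67Q (5.17%), and in pool 4 it was 4 (5.90%) and 3 (5.55%). Pool 1 had 2 of 7 with each form, against 4.88% and 6.29% of all genes. Pool 5 had 1 of 7 with each form, against 0.864% and 0.943%. These counts use the contrast that chose the genes, with 1 library on each side, and pools were not compared by a test. The pool with the most CDA transcript was the highest pool for some of the genes and not for others. With CDA, pool 3 had the highest TGM2 and CDCP1 levels at a CDA level of 2205, while CDA was highest in pool 2, at 5222. MARCKS with CDA was also highest in pool 2. With CDA_E67Q both orders had pool 3 first, with CDA at 5383 in the table of that comparison.

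**Figure D2:**
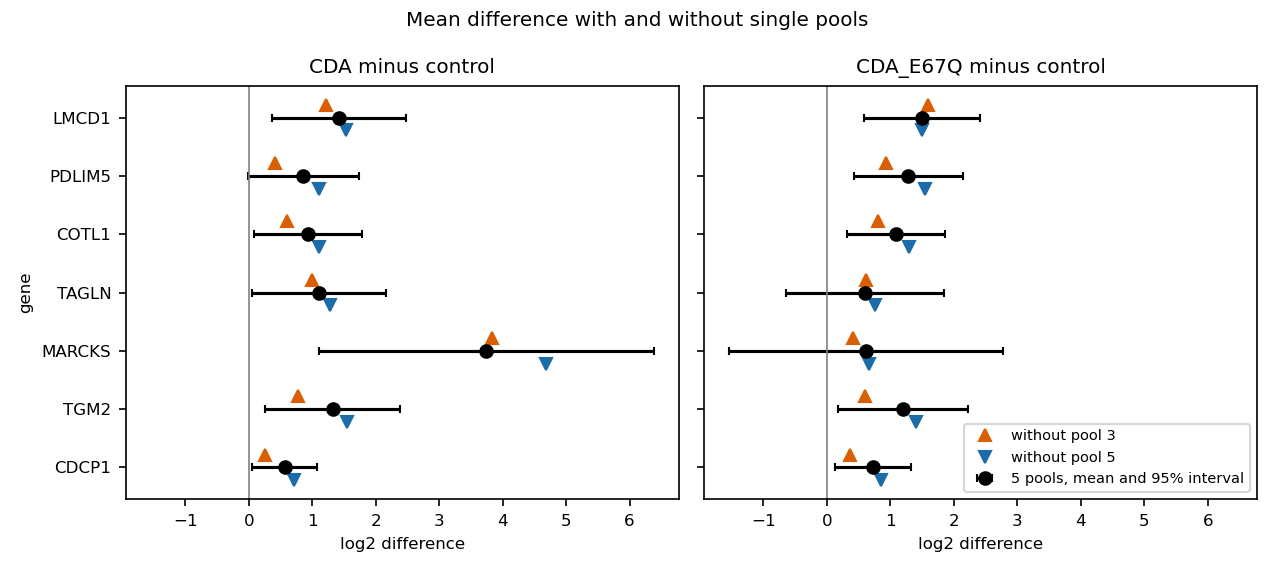
Mean log2 difference from the control for each gene, with its 95% interval over all 5 pools (circles), which treats the libraries as unpaired. Triangles give the mean without pool 3 (upward) or without pool 5 (downward). Leaving out pool 3 lowers TGM2 from 1.32 to 0.77 with CDA and from 1.20 to 0.60 with CDA_E67Q, while LMCD1 keeps 1.21 and 1.60.

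Pool 5 worked the other way. Without it the mean log2 difference with CDA was 1.53 for LMCD1, 1.11 for PDLIM5, 1.11 for COTL1, 1.28 for TAGLN, 4.68 for MARCKS, 1.55 for TGM2 and 0.71 for CDCP1. With CDA_E67Q it was 1.5, 1.55, 1.30, 0.76, 0.66, 1.40 and 0.85 in the same order. Each was equal to or above the value over all 5 pools. With single libraries left out in turn, TAGLN with CDA_E67Q ran from 0.26 (without CDA_E67Q replicate 2) to 1.11 (without CDA_E67Q replicate 1), and MARCKS with CDA_E67Q from -0.09 (without control replicate 1) to 0.92 (without CDA_E67Q replicate 2).

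Whether the 2 forms of the enzyme differed was described on the common scale, where CDA_E67Q stood below CDA for MARCKS by a log2 difference of -3.11 (95% interval -5.53 to -0.70). For TAGLN the difference was -0.51 (-1.76 to 0.74) and for TGM2 -0.12 (-1.25 to 1.01). CDA_E67Q minus CDA was 0.07 for LMCD1 (-0.83 to 0.97), 0.42 for PDLIM5 (-0.44 to 1.28), 0.16 for COTL1 (-0.63 to 0.95) and 0.16 for CDCP1 (-0.41 to 0.73). Except for MARCKS the intervals span 0, and they are wide enough that they do not show the forms to act alike. Across all genes, 0 of 11588 passed the threshold by limma between the forms (0%) and 24 had an unadjusted p under 0.05 (0.207%). MARCKS was chosen for its level with CDA, so its interval is no independent test.

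Each group held every pool number, so differences between pool numbers that the groups share were tested. The genes were chosen on these same libraries, so this is not fully independent of their choice. A pool pattern that differs between groups counts as residual variation in this fit. TGM2 in pool 3 is such a case, with 3094 in the control, 35787 with CDA and 37531 with CDA_E67Q. With group in the fit, TAGLN was the only one of the 7 to differ between pool numbers (limma F test, adjusted p = 0.00673), where 45.0% of all tested genes did. Its mean level over the 3 libraries of a pool was 32.5 in pool 1, 166 in pool 2, 147 in pool 3, 120 in pool 4 and 74.3 in pool 5. The call was lost without pool 1 (adjusted p = 0.124) or pool 5 (adjusted p = 0.0805). TGM2 had means of 9205, 18510, 25471, 12975 and 5766 (adjusted p = 0.149), and passed without pool 3 (adjusted p = 0.0181). For the others the adjusted p by limma was 0.170 for MARCKS, 0.199 for COTL1, 0.287 for PDLIM5, 0.401 for LMCD1 and 0.515 for CDCP1. Without pool 5, 1.43% of all genes differed between pool numbers and none of the 7 did.

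The wider families of these genes gave no calls between groups. The overexpressed CDA transcript gave none in these fits either, so this does not show the families to be unchanged. None of the 9 lists below had a member past the threshold by limma with either form (0% of all genes were past it), and the smallest adjusted p was 1 in every list. LIM-domain proteins other than LMCD1 and PDLIM5 were higher in 24 of 32 tested genes with CDA (median log2 difference 0.20) and in 23 of 33 with CDA_E67Q (0.14). Over all genes 52.8% were higher with CDA (median 0.011) and 51.4% with CDA_E67Q (0.007). LIMD1, an adhesion and microRNA-silencing scaffold, stood at 1047 ± 277 with CDA against 788 ± 139 in the control (mean ± SD, n = 5), and the junction protein LMO7 at 398 ± 260 against 231 ± 87.0. With CDA_E67Q the adhesion protein AJUBA stood at 430 ± 99.5 against 559 ± 119, and TRIP6 at 4363 ± 1171 against 3355 ± 1662. All 4 sets of libraries overlapped the control.

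Calponin and cofilin-like actin binders were higher in 12 of 15 genes with CDA (median 0.16) and in 10 of 15 with CDA_E67Q (0.10). TAGLN2, the non-muscle relative of TAGLN, stood at 9255 ± 1799 with CDA against 7162 ± 485, above its control in 5 of 5 pools, and at 8852 ± 1745 with CDA_E67Q against 7032 ± 456, above in 4 of 5. TWF2, a twinfilin that caps filament ends, stood at 2197 ± 744 against 1578 ± 375 with CDA and at 2433 ± 922 against 1548 ± 372 with CDA_E67Q. In this list 1 gene had an unadjusted p under 0.05 in each comparison, against 0.282% and 0.476% of all genes. Actin-myosin genes and targets of serum response factor were higher in 21 of 29 (median 0.09) and 18 of 29 (0.04). The filament-severing protein GSN stood at 12546 ± 1261 with CDA against 15340 ± 2611, and MYLK, the myosin light chain kinase, at 17.6 ± 8.77 against 12.1 ± 13.5. FSCN1, which bundles filaments in cell protrusions, stood at 4149 ± 1344 with CDA_E67Q against 2535 ± 2038, and the serum response cofactor MRTFB at 329 ± 158 against 475 ± 117.

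Targets of YAP and TAZ, which respond to cell tension, were higher in 15 of 18 genes with CDA (median 0.22) and in 11 of 18 with CDA_E67Q (0.14). The matrix-associated growth regulator CCN2 stood at 310 ± 300 with CDA against 73.9 ± 113, above its control in 5 of 5 pools, and CRIM1 at 3399 ± 403 against 2588 ± 715. With CDA_E67Q the caveolar gene CAVIN2 stood at 1337 ± 765 against 717 ± 457, and TGFB2 at 134 ± 267 against 13.3 ± 13.3. Genes induced by TGF-beta were higher in 8 of 17 with each form (medians -0.01 and -0.06). Their 2 members with the smallest p with CDA were FN1 (16.4 ± 3.98 against 12.4 ± 9.99) and TGFB1 (1926 ± 749 against 1496 ± 815). With CDA_E67Q they were FN1 (19.1 ± 12.1 against 11.3 ± 9.08) and the pathway inhibitor SMAD7 (59.8 ± 52.1 against 78.2 ± 49.3).

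Integrin and focal adhesion genes were higher in 15 of 25 with CDA (median 0.09) and 16 of 24 with CDA_E67Q (0.05). The filament-elongating protein VASP stood at 7211 ± 1525 against 5987 ± 1777 and at 7693 ± 844 against 5872 ± 1753, and the adhesion scaffold TNS3 at 4348 ± 1492 against 5460 ± 803 and at 4063 ± 1233 against 5172 ± 763. SRC-family kinases and partners of CDCP1 were higher in 10 of 15 with each form (medians 0.07 and 0.12). The urokinase receptor PLAUR stood at 1754 ± 740 against 1312 ± 599 with CDA and at 2528 ± 1963 against 1289 ± 591 with CDA_E67Q. Urokinase PLAU stood at 11063 ± 4773 with CDA against 8764 ± 1574, and the kinase ABL2 at 1554 ± 479 with CDA_E67Q against 1139 ± 545.

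Relatives and kinases of MARCKS were higher in 7 of 11 genes with CDA (median 0.08) and 6 of 11 with CDA_E67Q (0.03). The close relative MARCKSL1 stood at 4755 ± 661 with CDA against 4269 ± 877, and the anchoring protein AKAP12 at 654 ± 303 against 493 ± 156. With CDA_E67Q, PRKCH stood at 127 ± 54.5 against 201 ± 118 and the adducin ADD3 at 506 ± 258 against 1020 ± 801. Transglutaminases and retinoid response genes, which include the pathway that induces TGM2 in many cells, were higher in 4 of 7 tested genes (median 0.05) and 5 of 8 (0.16). The retinoic acid hydroxylase CYP26B1 stood at 68.6 ± 68.4 with CDA against 25.2 ± 18.2 and the receptor RARA at 622 ± 178 against 538 ± 211. With CDA_E67Q, RXRA stood at 2617 ± 713 against 3063 ± 753 and RARA at 622 ± 155 against 538 ± 209.

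**Figure D3:**
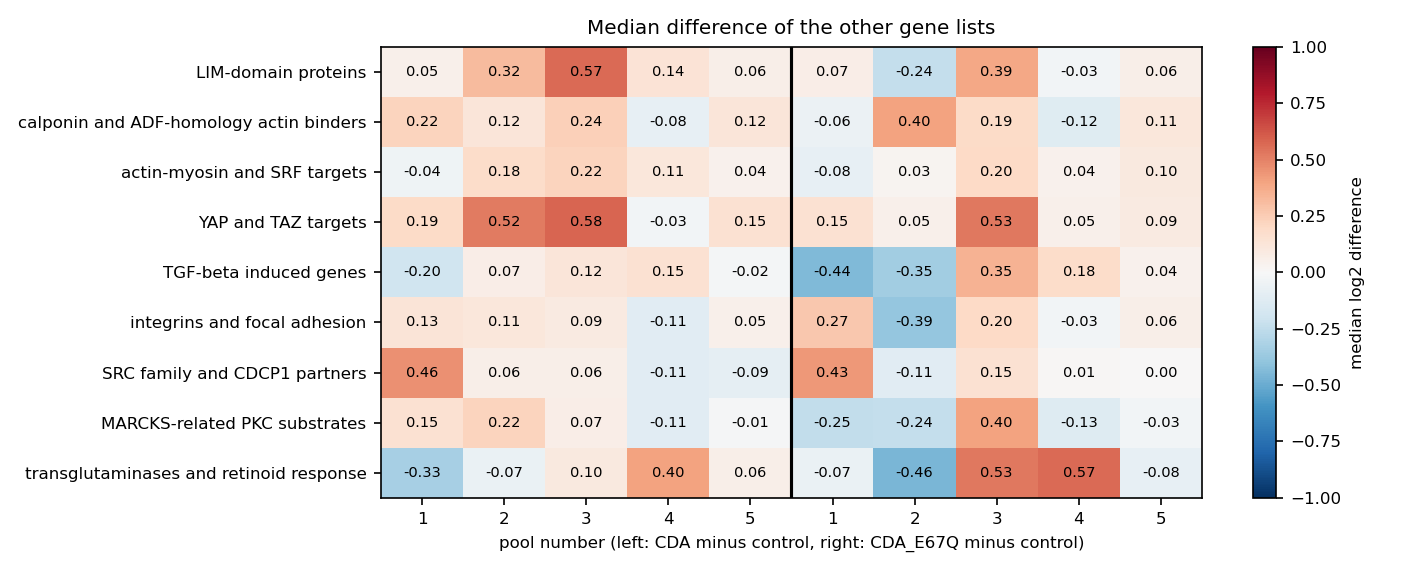
Median log2 difference from the same-numbered control for 9 gene lists (rows) that exclude the 7 genes, in pools 1 to 5 (columns), with CDA on the left and CDA_E67Q on the right. In pool 3 all 9 lists have medians above 0 with both forms, from 0.06 to 0.58 with CDA and from 0.15 to 0.53 with CDA_E67Q.

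In pool 3, where the 7 genes had the highest median, the median of each of the 9 lists was above 0 with both forms. It was 0.57 with CDA and 0.39 with CDA_E67Q for LIM-domain proteins, and 0.58 and 0.53 for YAP and TAZ targets. Transglutaminases and retinoid genes had 0.10 and 0.53, and relatives of MARCKS had 0.07 and 0.40. SRC-family genes had the lowest pool 3 medians with both forms, at 0.06 and 0.15. In pool 2 the LIM-domain median was 0.32 with CDA and -0.24 with CDA_E67Q, while COTL1 and PDLIM5 were higher with both. Both differences in a pool use 1 control library. Between pool numbers the lists varied at about the share of all genes or above it. The count past the threshold by limma was 23 of 33 for LIM-domain proteins, 7 of 15 for calponin and cofilin-like genes, 14 of 30 for actin-myosin genes and 9 of 19 for YAP and TAZ targets, against 45.0% of all genes. CSRP1, a LIM-only muscle and filament protein, had a mean of 4208 in pool 2 and 1175 to 1825 in the others (adjusted p = 5.42e-05 by limma), and the filament-severing cofilin CFL1 had 10794 in pool 5 and 27338 to 40009 in the others (adjusted p = 4.71e-05 by limma).

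The genes whose levels most resembled each of the 7 were ranked by Pearson's r of log2 levels over the 15 libraries, among 11588 genes. The points share groups, pool numbers and the common scale, so r is a description. Within the set, PDLIM5 and CDCP1 were most alike (r = 0.86), followed by TGM2 and CDCP1 (0.84) and COTL1 and CDCP1 (0.80), while MARCKS had 0.20 to 0.54 with the others. LMCD1 was nearest to TAGLN2 (0.82), COTL1 (0.76) and the apoptosis gene BID (0.75). PDLIM5 was also close to the CDC42 effector CDC42EP1 (0.84). COTL1 was nearest to the chromatin protein HMGA1 (0.89), NELFA (0.85) and HDX (0.82), and TAGLN to LIPC (0.87), BATF3 (0.87) and RFTN1 (0.86). MARCKS was nearest to the catenin ARVCF (0.88), SDCBP (0.82) and FOXD2 (0.81). TGM2 was nearest to CABIN1 (0.95), LRRC15 (0.94) and the survival gene BCL2L1 (0.90), and CDCP1 to the oxytocin receptor OXTR (0.88), TBC1D1 (0.87) and TBC1D23 (0.86).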

How the data were processed

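The authors deposited 2 tables of 16887 genes on a log2 scale, with the form of variance-stabilised counts (from the values). The tools named are Salmon, Trimmomatic, FastQC and bcl2fastq, and the build is GRCh38, per the submitters' processing notes. No step after Salmon is named there. Values were turned back into normalised counts, from the floor shared by genes with no read (6.65 and 6.17). The 5 control libraries stand in both tables and agreed to 1 factor per gene and library (largest residual 1.36e-08 log2), which put 13917 genes on 1 common scale. No counting interval is given, since Salmon's estimates need not be whole.

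limma 3.58.1 (R 4.3.3, mean-variance trend, tested on simulated data) was run on log2(normalised count + 1), 2-sided, for genes at 10 or more in at least 5 libraries, with Benjamini-Hochberg adjustment over all genes and a threshold of 0.05. In the simulated group comparison the libraries had no pool differences, so it does not show how well changes are found in these data. The pseudocount understates the change of low genes. Each form was compared with the control within its own table, without a pool term. The forms were compared over 15 libraries, also without a pool term. Pool numbers were compared over 15 libraries with group in the fit. No source used here says whether counting used strand, so genes with overlapping exons are uncertain. The members, lists and tests were chosen with earlier results of these data known. The text names the 7 genes, the 2 genes with the smallest p per list and comparison where none passed, and the 3 most alike genes; 1 alike gene and 1 marker are not reported here. Python 3.11.15, numpy 2.4.6, pandas 2.3.3 and matplotlib 3.10.9 were also used. Alternatives covered filters, pseudocount, scaling, deposited values, the replicate block and left-out libraries.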

Additional observations from a re-analysis of the deposited data

Results flagged for a closer look

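In 21 sets of 5 libraries (7 genes in 3 groups), 2 held a library far from the other 4 by Dixon's test, which flags about 1 set in 20 by chance. PDLIM5 in the CDA library of pool 3 stood at 2605, with the other CDA libraries at 840 to 1092. MARCKS in the CDA library of pool 2 stood at 1650, with the others at 19.7 to 146.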

How the results depend on the processing

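Over the planned and added alternatives, the count of genes past the threshold stayed at 0 for both comparisons with the control and for CDA_E67Q against CDA, except that with all 15 libraries in 1 fit and pool number as a replicate block 1 gene passed with each form, the CDA transcript (adjusted p = 0.00987 and 0.00419 by limma). This setting and the fit without pool 3 were chosen after seeing the data. With the replicate block in each table of 10 libraries the count was 0. The numbers do not pair every library: deviations of same-numbered libraries correlated at 0.00 to 0.89 with CDA and -0.08 to 0.88 with CDA_E67Q, lowest in pool 1, and libraries correlated best with their own number in pools 2, 3 and 5 with CDA and in pools 2 to 5 with CDA_E67Q. The count between pool numbers ran from 163 to 5660 with 1 pool left out. Of the 7 genes, 13 of 14 differences from the control kept their sign in every alternative, and MARCKS with CDA_E67Q was -0.09 without control replicate 1 and could be fitted in 12 alternatives. The alternatives reuse the libraries on which the genes were chosen for being higher, so the kept signs are no independent support. Markers far from the threshold changed sign: with single libraries left out, KRT19 ran from -0.56 to 0.04 with CDA and from -0.32 to 0.12 with CDA_E67Q, and CLDN4 from -0.62 to 0.24 with CDA_E67Q. KRT19 was 0.04 with CDA without CDA replicate 1. With CDA_E67Q, KRT19 was 0.07 without pool 3, 0.02 without control replicate 3, 0.12 without control replicate 5 and 0.07 without CDA_E67Q replicate 1 or 4. CLDN4 was 0.05 without pool 3, 0.24 without control replicate 5 and 0.17 without CDA_E67Q replicate 3. The cause was not tested.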

Other observations

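Among the genes that most resembled the 7, several had levels with wide ranges between libraries. OXTR, the oxytocin receptor, stood at 29.6, 27.9, 18.0, 11.2 and 59.6 in control pools 1 to 5, at 38.7, 82.3, 1564, 45.4 and 85.0 with CDA, and at 22.4, 246, 1089, 41.8 and 110 with CDA_E67Q in its own table. Both forms were highest in pool 3, as TGM2 and CDCP1 were. The log2 difference of OXTR was 2.14 with CDA and 2.26 with CDA_E67Q, and neither passed the threshold by limma (adjusted p = 1 for both). LRRC15, a membrane protein of stromal and mesenchymal cells, stood at 6.36, 20.7, 3.62, 6.53 and 1.80 in the control, at 9.60, 149, 241, 18.9 and 3.29 with CDA, and at 6.17, 48.7, 231, 16.9 and 4.20 with CDA_E67Q. It was too low for the tests within the tables. RFTN1, a lipid raft protein, stood at 12.7, 268, 205, 92.4 and 49.2 with CDA against 47.1, 81.8, 25.4, 21.5 and 15.3 in the control, and like TAGLN it was lowest in pool 1 with both forms (4.74 with CDA_E67Q).

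Markers of other cell types were also tested. With CDA the fibroblast and smooth muscle markers were higher in 4 of 6 tested genes (median 0.19) and with CDA_E67Q in 3 of 6 (0.05), with no gene past the threshold by limma. Pool 1 stood apart, with a median log2 difference of 2.13 with CDA and 2.36 with CDA_E67Q and with 4 and 5 of the 6 genes at least 2-fold higher, against 1 shared control library. In pools 2 and 3 the median was below 0 with both forms. The smooth muscle gene SMTN stood at 939 ± 274 with CDA against 724 ± 194 and at 1029 ± 394 with CDA_E67Q against 666 ± 180. COL1A1 stood at 47.2 ± 51.5 with CDA against 73.7 ± 75.3, and COL3A1 at 1070 ± 1600 with CDA_E67Q against 246 ± 356. Epithelial markers were higher in 2 of 6 with each form (medians -0.02 and -0.03). KRT19 stood at 4127 ± 2315 with CDA against 4706 ± 2055 and at 4450 ± 2227 with CDA_E67Q against 4608 ± 1997. SOX9 stood at 6326 ± 1111 with CDA against 5833 ± 968, and CLDN4 at 2063 ± 1838 with CDA_E67Q against 2399 ± 2079.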
